A study of Mus musculus with 4 samples.

Results

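The genes described here are 10 that intercalated cells of the kidney use to move acid and base, taken by symbol from the 25636 genes counted in each library and all found there. They are the anion exchangers Slc26a4, Slc4a9 and Slc4a1, the alkali-sensing receptor Insrr, the proton pump subunits Atp6v1g3, Atp6v0d2, Atp6v1b1 and Atp6v0a4, the transcription factor Foxi1 and the carbonic anhydrase Car2. They were counted in nuclei of the renal cortex of female mice, with 1 library from each of 4 groups: MRL/lpr at 6 weeks, C57BL/6 at 6 weeks, MRL/lpr at 10 weeks and C57BL/6 at 10 weeks of age. Values for the 4 libraries are given in this order throughout. MRL/lpr mice are inbred, carry the lpr mutation of Fas, which encodes a receptor for cell death signals, and develop lupus nephritis, while C57BL/6 is an inbred strain of other descent with normal Fas. The design held no MRL animals without the lpr mutation, so mutation, strain background and disease cannot be told apart. How many animals gave each library is not given in the sources used here. Each group had 1 library, so levels in the strains and ages are given as ratios without a test, and their intervals cover counting error only.

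Intercalated cells lie among the principal cells of the connecting tubule and collecting duct. Type A cells secrete acid: a proton pump, the V-ATPase, sits in their luminal membrane, and Slc4a1 (AE1, also the band 3 protein of red cells) returns bicarbonate to the blood. Type B cells are turned the other way and secrete bicarbonate to the lumen through Slc26a4, pendrin, in exchange for chloride, with Slc4a9 (AE4) in the basolateral membrane. Both types make protons and bicarbonate from water and carbon dioxide with the cytosolic enzyme carbonic anhydrase II, the product of Car2, and both need the forkhead factor Foxi1 to form. Inherited loss of ATP6V1B1, ATP6V0A4 or FOXI1 causes distal renal tubular acidosis in people.

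Promoter sequences of the members with an entry in the RefSeq table (5 of 10, build GRCm38.p6) were searched for short words. Forkhead factors are known to bind these words, which were chosen because Foxi1 is a forkhead protein. Across cell classes and libraries the level of Foxi1 correlated with that of Atp6v0d2 (r = 0.956), Slc4a9 (0.946) and Atp6v1g3 (0.915). It correlated less with Atp6v1b1 (0.717) and Atp6v0a4 (0.555). An r as high was also found between other members, as for Slc4a9 and Atp6v0d2 (0.960), so these values do not bear on the words. Atp6v0d2 and Slc4a9 were not among the promoters searched. The search covered either strand of the 250 bases before the gene's start, and a promoter counted once for each word it held, overlapping or not. The words were TGTTTAC, held by 3.17% of all 32851 promoters of this length, TGTTTAT, held by 4.16%, TGTTTGT, held by 5.84%, and TGTTTGC, held by 4.30%, and 15.7% held any of them. The promoters of Atp6v1b1 (chr6:83742767-83743016, plus strand) and Atp6v1g3 (chr1:138273488-138273737, plus strand) each held 1, at positions -98 and -67 from the start. Those of Slc26a4 (chr12:31559985-31560234, minus strand), Atp6v0a4 (chr6:38124587-38124836, minus strand) and Foxi1 (chr11:34208090-34208339, minus strand) held none. The pair with a word and, for contrast, that of Slc26a4 are shown 5′ to 3′ in the direction of the gene, with the word in capitals. In Atp6v1g3 the capitals are TGTTTGT read on the other strand.
Atp6v1b1: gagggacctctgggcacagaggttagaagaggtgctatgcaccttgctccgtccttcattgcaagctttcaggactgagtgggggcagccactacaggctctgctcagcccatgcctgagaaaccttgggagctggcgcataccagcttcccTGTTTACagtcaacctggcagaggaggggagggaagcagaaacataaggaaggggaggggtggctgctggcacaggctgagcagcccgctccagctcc
Atp6v1g3: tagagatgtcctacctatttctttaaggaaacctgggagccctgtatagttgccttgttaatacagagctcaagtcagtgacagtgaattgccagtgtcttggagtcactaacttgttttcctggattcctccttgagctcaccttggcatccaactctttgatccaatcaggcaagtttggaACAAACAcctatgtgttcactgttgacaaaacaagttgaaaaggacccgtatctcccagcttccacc
Slc26a4: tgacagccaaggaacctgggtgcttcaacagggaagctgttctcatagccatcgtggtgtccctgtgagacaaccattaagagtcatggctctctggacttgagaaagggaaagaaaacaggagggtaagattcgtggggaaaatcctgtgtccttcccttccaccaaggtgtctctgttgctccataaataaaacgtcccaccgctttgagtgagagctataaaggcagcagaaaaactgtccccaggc
A word in these letters is a description of the sequence, and no binding was measured.

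The libraries held 9365, 10182, 9889 and 9638 barcodes, with 6466973 to 7660682 unique molecular identifiers (UMIs, counted RNA molecules) each. After filtering, 35739 nuclei remained, with library medians of 561 to 693 UMIs per nucleus. Pairs of libraries shared 112 to 143 barcode sequences. Nuclei were clustered without the 10 members, and classes were named from marker genes that were not members. A class of 1473 nuclei was intercalated-like, with 14 of 16 non-member markers enriched, and it held 370, 348, 350 and 405 nuclei. That was 4.27% (3.86 to 4.72), 3.81% (3.42 to 4.22), 3.86% (3.48 to 4.28) and 4.57% (4.14 to 5.02) of the nuclei of each library, with exact Clopper-Pearson 95% intervals. The median depth of these nuclei was 567, 514, 480 and 479 UMIs, and levels are given as counts per 1000000 UMIs of the class (CPM) in each library. Proximal tubule RNA was present in the class, and the summed proximal tubule markers stood at 1432 to 2155 CPM in it, with 12 or 13 of 14 markers seen, against 24010 to 32020 CPM in proximal tubule-like nuclei.

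All 10 members were higher in intercalated-like nuclei than in any other class, and for each of them the lowest of the 4 intercalated values lay above every value of the class that ranked next. Slc4a9 reached 6069, 7401, 7293 and 6374 CPM, and 85.1%, 91.7%, 87.7% and 84.9% of intercalated nuclei had a UMI of it. The next class, macrophage-like nuclei, which also carried proximal tubule RNA, stood at 38.7 to 119 CPM. In proximal tubule-like nuclei, which should lack Slc4a9 and had median depths of 738 to 851 UMIs, 1.04% to 1.94% had a UMI, and this share is used as the background of detection; its source was not tested. Slc26a4 reached 4916, 4905, 5551 and 4071 CPM, with a median 145 times that of the next class, and was detected in 56.2%, 60.1%, 51.1% and 53.6% of intercalated nuclei against 0.945% to 1.48% of proximal tubule-like nuclei. Slc26a4 was therefore seen in a smaller share of the class than Slc4a9 in each library.

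Slc4a1 was sparse. It gave 52, 73, 48 and 108 UMIs, or 232, 400, 267 and 528 CPM, and 11.9%, 15.8%, 11.1% and 16.5% of intercalated nuclei had a UMI, against 0.132% to 0.259% in the proximal tubule. Both C57BL/6 libraries were above both MRL/lpr libraries. Insrr, a relative of the insulin receptor that is activated by alkaline pH, stood at 739, 1319, 857 and 811 CPM, 40.9 times the next class at the median. Its level in the C57BL/6 library at 6 weeks was above that of the other 3 libraries. Foxi1 stood at 379, 515, 329 and 274 CPM and was 36.9 times the next class. Of each gene's UMIs in all kept nuclei, intercalated-like nuclei held 90.1% to 92.4% for Slc26a4, 87.5% to 91.5% for Slc4a9, 82.0% to 92.2% for Insrr, 81.7% to 87.5% for Foxi1 and 75.4% to 82.8% for Slc4a1.

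The pump subunits fell into a restricted pair and a broader pair. The V-ATPase has a cytosolic V1 part that splits ATP and a membrane V0 part that carries the protons, and several of its subunits come from more than one gene. Atp6v0d2, a subunit of the V0 part, stood at 1389, 1604, 1754 and 1916 CPM in intercalated nuclei, 67.4 times the next class, and these nuclei held 89.4% to 92.1% of its UMIs. Atp6v1g3, a stalk subunit of the V1 part, stood at 1180, 1735, 1320 and 2077 CPM and was 16.8 times its level in principal-like nuclei, which ranged from 24.3 to 110 CPM. In podocyte-like nuclei these genes gave 0 or 1 UMI in each library. Atp6v1b1, the B1 subunit of the V1 part, stood at 868, 794, 1102 and 860 CPM, only 3.93 times principal-like nuclei (185 to 282 CPM). It was also seen at 180 to 252 CPM in the thick ascending limb and 132 to 197 CPM in the connecting tubule, and at 2.97 to 4.68 CPM in the proximal tubule.

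Atp6v0a4, the a4 subunit of the V0 part, was the member least restricted to intercalated nuclei. It stood at 1772, 1927, 2116 and 1994 CPM in them, and they held 6.35% to 10.3% of its UMIs. In proximal tubule-like nuclei it reached 537, 1191, 700 and 1311 CPM, in the connecting tubule 668 to 927, in the thick ascending limb 683 to 939, in the distal convoluted tubule 696 to 897 and in principal-like nuclei 637 to 772 CPM. These 5 classes overlapped one another, so their order below intercalated nuclei was not resolved. Podocyte-like nuclei (35.9 to 93.1 CPM) and endothelium (30.4 to 73.2 CPM) lay below all of them. Car2 stood at 1861, 1653, 1509 and 1095 CPM, 5.84 times the next class, with 249 to 296 CPM in the proximal tubule and 169 to 328 CPM in principal-like nuclei. Because proximal tubule-like nuclei were many (18393), intercalated nuclei held only 16.1% to 23.0% of Car2 UMIs. A median of 5 members was seen in each intercalated nucleus, 3 or more in 83.4% to 92.8% of them, against 3 or more in 0.340% to 0.984% of proximal tubule-like nuclei.

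**Figure D1:**
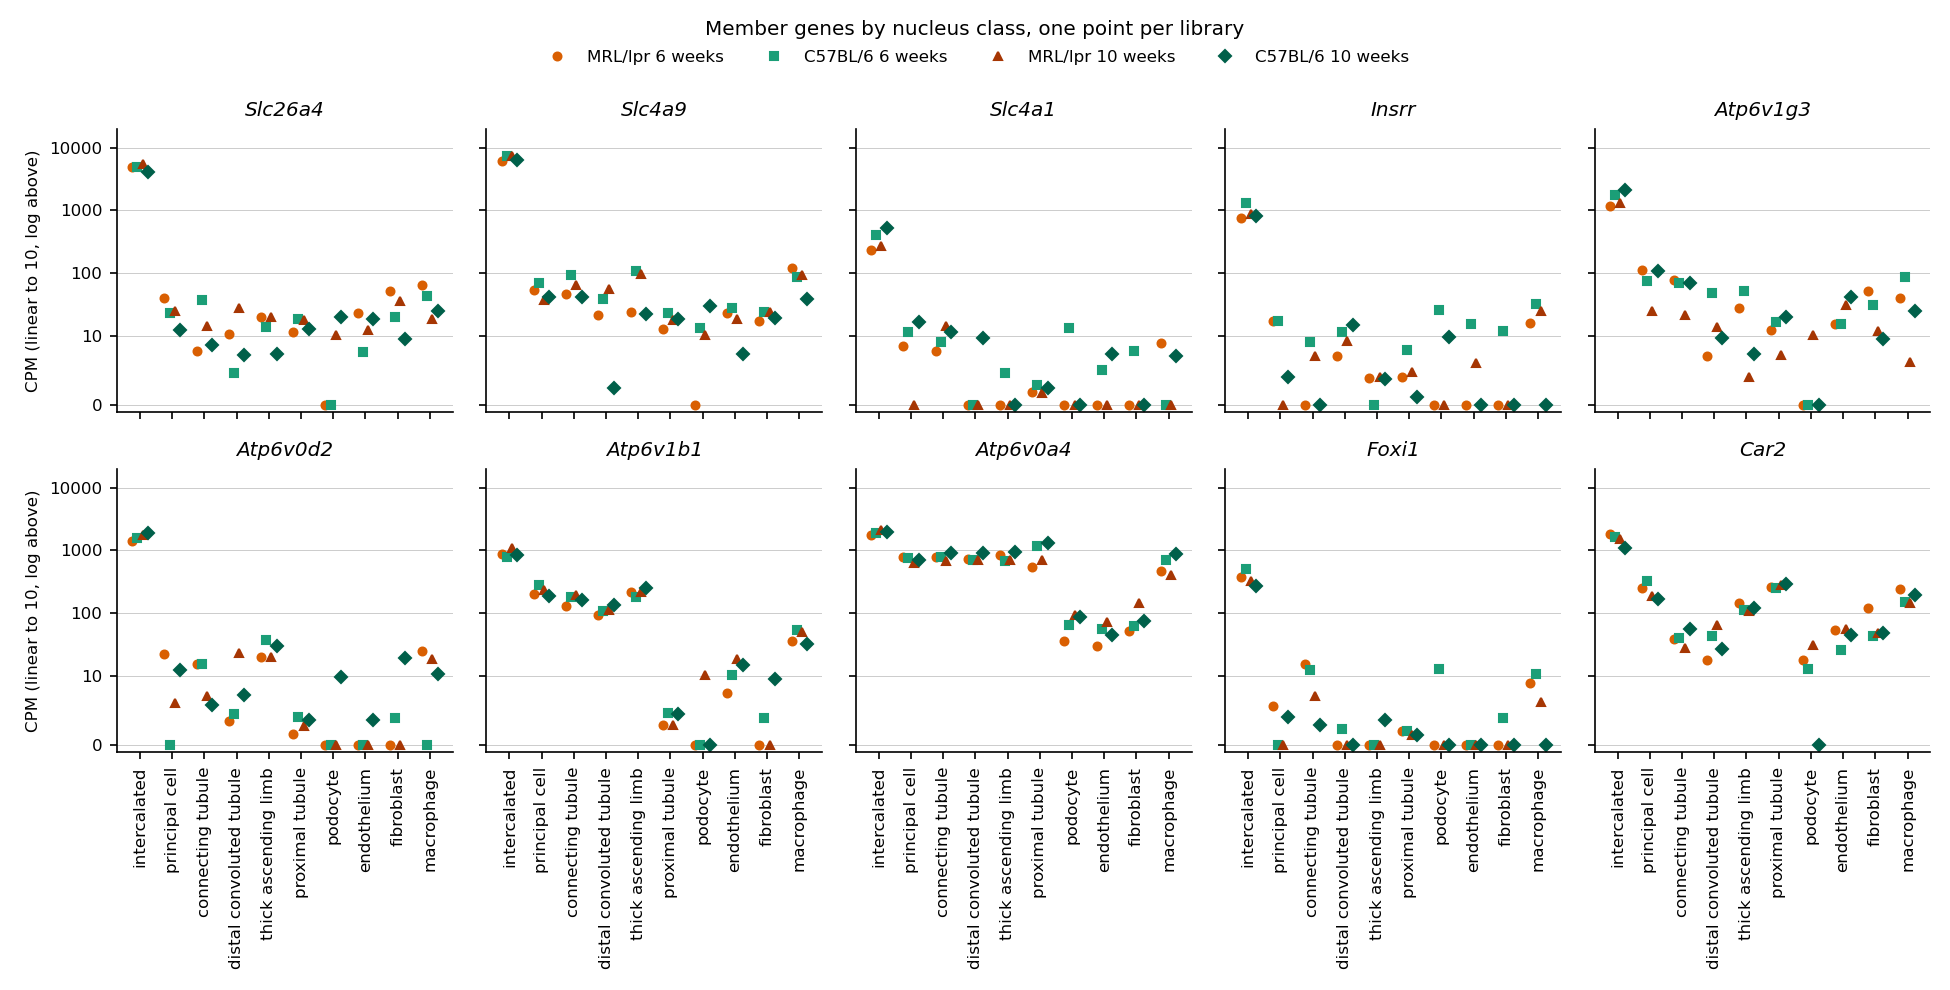
Level of each member gene in each cell class, in CPM, on a scale that is linear up to 10 and logarithmic above. Each point is 1 library; all 4 intercalated-like points lie above those of every other class in each of the 10 panels, by the least for Atp6v0a4 and Atp6v1b1.

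The tissue-restricted subunits could be set beside the broadly expressed gene for the same subunit. The broad partner was not highest in intercalated nuclei in any of 5 such pairs. Atp6v1b2, the partner of Atp6v1b1, had a median of 143 CPM there against 338 CPM in the proximal tubule. Atp6v1g1, the partner of Atp6v1g3, stood at 76.5 against 222 CPM in the proximal tubule. Atp6v0d1 stood at 120 CPM against 144 in fibroblast-like nuclei, and Atp6v0a1 at 141 against 211 CPM in podocyte-like nuclei. A restricted gene that is not a member, Atp6v1c2, stood at 1541, 1587, 1615 and 1373 CPM in intercalated nuclei, 13.1 times the connecting tubule, while its partner Atp6v1c1 stood at 74.5 CPM against 106 in the proximal tubule. Each value compares 1 gene across classes, and levels of different genes were not compared.

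**Figure D2:**
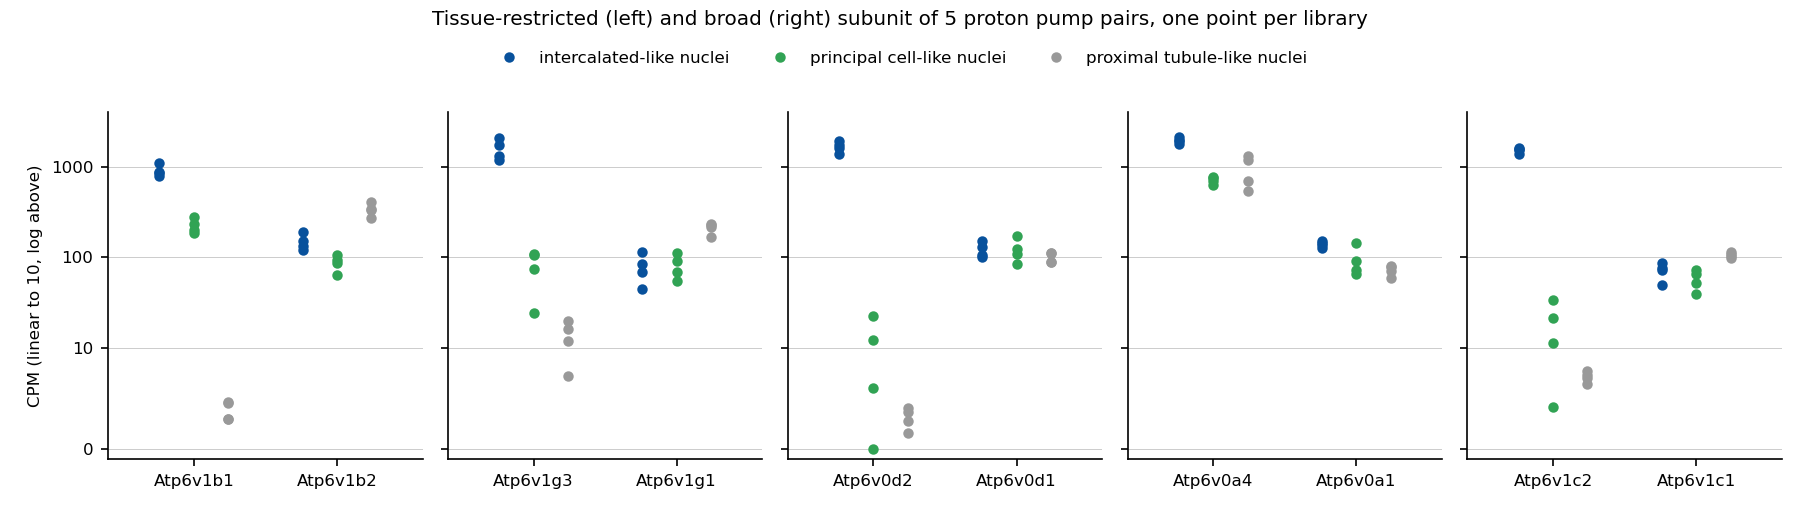
CPM of the restricted gene and of the broad gene for 5 V-ATPase subunits in intercalated-like, principal-like and proximal tubule-like nuclei, on a scale that is linear near 0 and logarithmic above. Each point is 1 library; the restricted genes are highest in intercalated nuclei, while Atp6v1b2, Atp6v1g1 and Atp6v1c1 are highest in proximal tubule-like nuclei.

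Within the class, Slc4a1 and Slc26a4 were almost never seen in the same nucleus. Of 1473 nuclei, 1 had UMIs of both (1 of Slc4a1 and 6 of Slc26a4, in the C57BL/6 library at 6 weeks), where the product of the shares of nuclei with each would give 113.6. Nuclei with more Slc4a1 than Slc26a4 UMIs were called type A (44, 54, 39 and 67), those with more Slc26a4 type B (208, 209, 179 and 217), and 118, 85, 132 and 121 nuclei had neither. Type B made up 82.5% (77.3 to 87.0), 79.5% (74.1 to 84.2), 82.1% (76.4 to 87.0) and 76.4% (71.0 to 81.2) of typed nuclei. This share depends on capture. Type A was called from a single Slc4a1 UMI in 146 of 204 nuclei, type B nuclei were deeper (521 to 679 against 386 to 484 UMIs at the median), and both depth and the nuclei counted moved the share. When the 54, 68, 115 and 83 nuclei under 400 UMIs were left out, it was 86.0%, 84.7%, 91.8% and 80.1%, and when the nuclei that remained were also thinned to 400 UMIs it was 88.4%, 88.2%, 91.5% and 80.9%. Nuclei with neither gene had 377 to 440 UMIs and carried genes that were higher in type A nuclei, with Adgrf5 at 1294 to 1875 CPM and Kit at 889 to 1009 CPM.

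**Figure D3:**
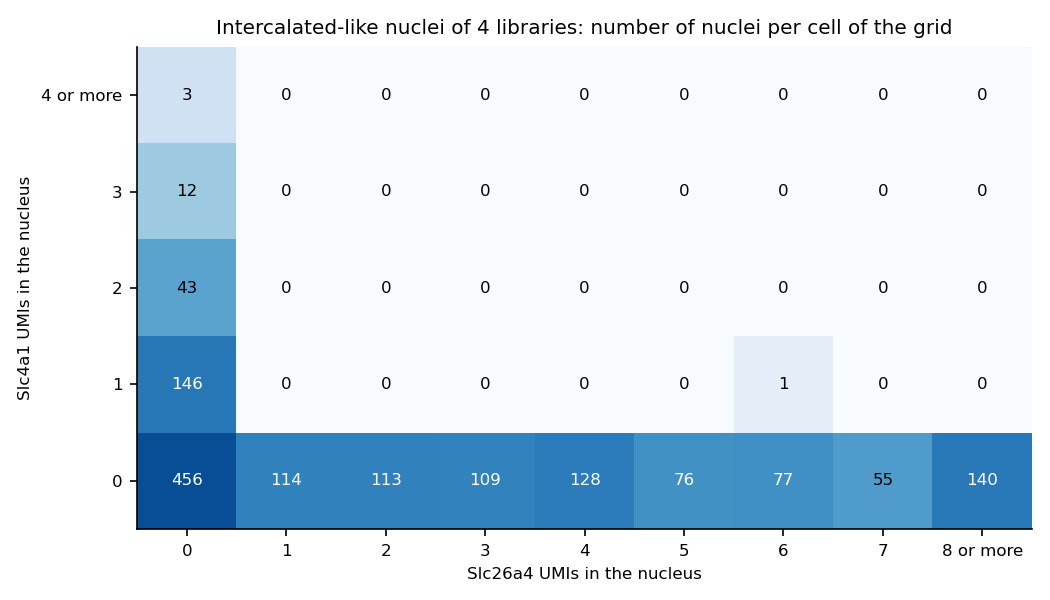
Number of intercalated-like nuclei by their Slc4a1 UMIs and Slc26a4 UMIs, all libraries together, with darker shading for more nuclei on a log scale. Nuclei lie along the axes: 1 of 1473 has UMIs of both genes.

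Type B was compared with type A within each library, with edgeR's quasi-likelihood test on the summed counts of the 8 type by library groups. Slc4a1 and Slc26a4 set the types and were left out. The median log2 ratio over the 6612 genes tested was 0.01. Of these genes, 94 were higher in type B (1.42%) and 86 were higher in type A (1.30%) at an adjusted p under 0.05. The counts rest on the scaling and the typing: they were 143 and 58 with TMM factors from all tested genes, 119 and 66 with DESeq2 size factors, and 33 and 33 when typing needed at least 2 UMIs. Without the C57BL/6 library at 10 weeks, which held the most type A nuclei, the counts were 62 and 52. Type A sums were shallow, at 15440 to 30601 UMIs against 111669 to 147442 for type B.

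Of the 8 members tested, 2 differed between the types, and both were higher in type B. Slc4a9 stood at 3125, 3390, 4728 and 3072 CPM in type A nuclei and 7589, 8754, 8955 and 8301 CPM in type B nuclei, and the ranges did not overlap. It was 2.39 times higher in type B (log2 ratio 1.26, SE 0.13, higher in 4 of 4 libraries, edgeR adjusted p = 6.24e-19). Slc4a9 was detected in type A far above its share in proximal tubule-like nuclei: of nuclei with Slc4a1, 61.4%, 76.4%, 71.8% and 64.2% had a Slc4a9 UMI, against 98.1%, 98.6%, 98.9% and 95.4% of nuclei with Slc26a4. Among nuclei with at least 400 UMIs, thinned to 400, the shares for Slc4a1 nuclei were 48.0%, 68.0%, 80.0% and 57.1%.

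Insrr was near absent from type A. It gave 0, 2, 0 and 0 UMIs in type A nuclei and 162, 222, 149 and 156 UMIs (1099, 1833, 1334 and 1308 CPM) in type B nuclei. Over all libraries that was a ratio of 63.2 with a counting interval of 17.4 to 523 (edgeR adjusted p = 4.57e-36). Both type A UMIs came from the C57BL/6 library at 6 weeks, and without it type A held 0. Nuclei with neither typing gene lay between, at 71.4, 458, 95.2 and 183 CPM. Of nuclei with an Insrr UMI, 98.2%, 92.0%, 96.9% and 93.1% also had Slc26a4, and 0%, 1.34%, 0% and 0% had Slc4a1. Conversely, 49.8% to 65.6% of nuclei with Slc26a4 had an Insrr UMI.

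The other 6 members did not pass the test. Atp6v1g3 was at 852, 2165, 1425 and 1732 CPM in type A and 1173, 1561, 1388 and 2222 CPM in type B (log2 ratio 0.05, SE 0.17). Atp6v0d2 was at 1136, 1756, 1749 and 1765 against 1479, 1602, 1854 and 2121 CPM (0.14, SE 0.17), and Atp6v0a4 at 2036, 1961, 2267 and 1863 against 1635, 1875, 2051 and 1878 CPM (-0.12, SE 0.16). For these pump subunits the types overlapped, as they did for Atp6v1b1 (-0.25, SE 0.20) and Foxi1 (-0.16, SE 0.29). The signs of these 5 values are not settled, since each turned under at least 1 other processing choice. Car2 was at 2320, 1797, 2137 and 1503 CPM in type A and 1872, 1594, 1388 and 906 CPM in type B, higher in type A in 4 of 4 libraries (log2 ratio -0.44, SE 0.17), with an edgeR adjusted p of 0.17. The difference between strains in the type ratio was tested with an interaction term: 0 of 6612 genes passed in edgeR (0%), with 224 at an unadjusted p under 0.05, and 0 passed, with 235 at that p, when DESeq2 size factors were used.

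**Figure D4:**
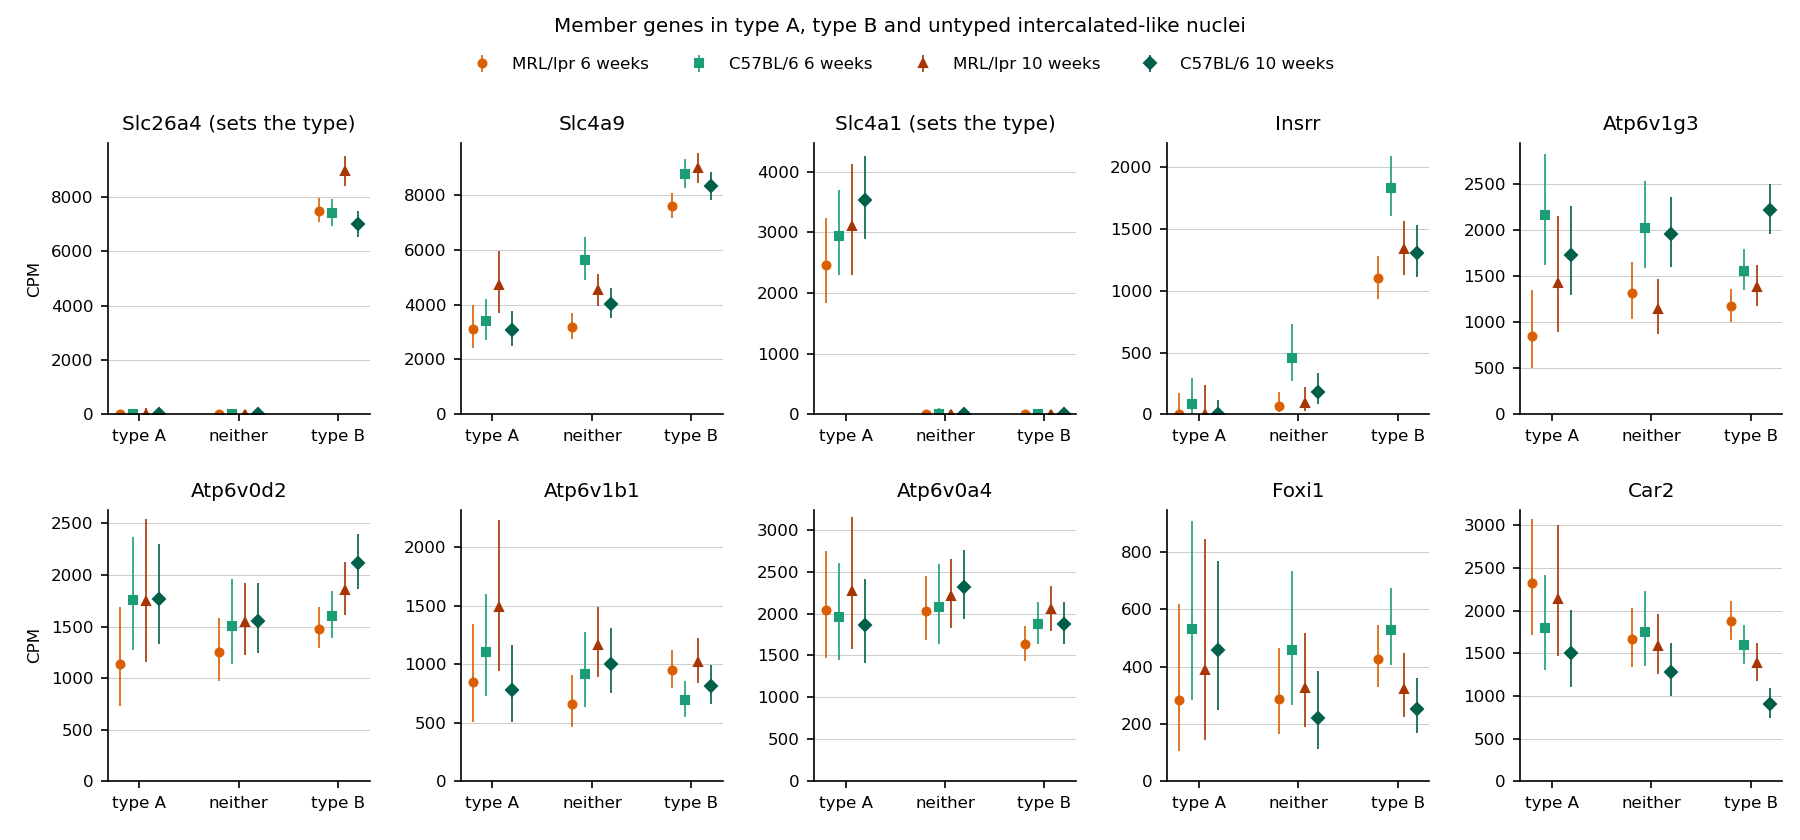
CPM of each member in type A nuclei, nuclei with neither typing gene and type B nuclei, 1 point per library with its exact Poisson 95% interval, which covers counting error only. Slc4a9 and Insrr separate the types, Slc4a1 and Slc26a4 define them, and the pump subunits and Foxi1 overlap.

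Among the other genes that passed, the 5 non-members with the smallest p in each direction had large ratios. The ratios given for them are of counts pooled over the libraries, while the p-values come from the edgeR fit. In type B these were Lsamp, Nbea, Thsd7a, Hmx2 and Tmem163. Lsamp, a neural adhesion protein, gave 2 UMIs in all type A nuclei against 6079 to 11700 CPM in type B, a ratio of 394 (counting interval 109 to 3257, edgeR adjusted p = 2.79e-142). Nbea had a ratio of 239 (42.8 to 9443), Thsd7a of 118 (21.1 to 4660) and Tmem163 of 39.5 (10.9 to 327). The homeobox gene Hmx2 gave 0 UMIs in type A and 470 in type B, at least 28.8-fold higher in type B when type A is set at 3 UMIs over its 4 libraries. In type A the genes were Adgrf5, Defb1, Aqp6, Lrrc31 and the stem cell factor receptor gene Kit. Adgrf5 was 19.95 times higher than in type B, Defb1 9.855 times, Lrrc31 24.06 times and Kit 11.57 times. Aqp6, a water channel of intracellular vesicles, stood at 994, 1185, 1684 and 1046 CPM in type A and 13.6, 24.8, 0 and 0 CPM in type B (edgeR adjusted p = 6.35e-64).

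The wider gene lists were read beside the background shares above. Of 25 V-ATPase subunit genes, 21 were tested and 0 passed in either direction in edgeR, with a median log2 ratio of 0.03; Atp6v0b, with many UMIs, was at 0.31 (adjusted p = 0.412). Of 16 carbonic anhydrase genes, 3 were tested and 2 were higher in type B. Car12, a membrane-bound extracellular form, stood at 1326, 1716, 1166 and 1373 CPM in type A and 3506, 4658, 3018 and 4947 CPM in type B, 2.92 times higher (edgeR adjusted p = 5.07e-19), and Car15 was 3.73 times higher (adjusted p = 0.000606). The median of the 3 was 1.54, and Car2, given above, did not pass. Of 20 anion exchanger and bicarbonate transporter genes, 5 were tested and Slc4a9 alone passed; Slc4a2 (-0.04) and Slc4a4 (-0.38) did not, and the median was 0.16.

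Of 23 genes for proton, ammonia, chloride and potassium transport, 16 were tested, 1 was higher in type B and 2 in type A, with a median of -0.43. Rhbg, a basolateral ammonia channel, stood at 710, 1716, 842 and 1601 CPM in type A and 393, 669, 376 and 528 CPM in type B, 2.47 times higher in type A (edgeR adjusted p = 5.53e-08). The sodium-proton exchanger gene Slc9a2 was higher in type A (log2 ratio -1.89, edgeR adjusted p = 0.0448) and the chloride-proton exchanger gene Clcn3 in type B (1.53, adjusted p = 0.00585). Of the 29 regulators and receptors found, 23 were tested, 4 were higher in type B (Insrr, Hmx2, Casr and Jag1) and 5 in type A (Kit, Adgrf5, Dmrt2, P2ry14 and Tfcp2l1), with a median of -0.11. Casr, the calcium-sensing receptor, gave 0 UMIs in type A and 138 in type B, at least 8.44-fold higher with type A at 3 UMIs over its 4 libraries. Jag1, a Notch ligand, was higher in type B by 2.37 on the log2 scale (edgeR adjusted p = 6.84e-05). Tfcp2l1, a transcription factor of intercalated cells, was lower in type B by 0.72 (edgeR adjusted p = 4.16e-05).

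Likeness was measured by Pearson's r of log2(CPM + 10) over 48 sums of class and library, with types A and B as classes; genes and sums share libraries, and r is a description. The genes most like Slc26a4 were Hmx2 (0.954), Lsamp (0.951) and Cacna1e (0.924). Those most like Slc4a1 were Aqp6 (0.967), Dscaml1 (0.958) and Dmrt2 (0.9501). Those most like Foxi1 were Cpsf4l (0.948), Kctd16 (0.945) and Wscd2 (0.939), and Wscd2 (0.940), Cpsf4l (0.910) and Oxgr1 (0.903) were most like Atp6v1g3. Foxi1 and Atp6v1g3 thus shared Wscd2 and Cpsf4l. Among members, Slc4a9 and Atp6v0d2 had an r of 0.960, Foxi1 and Atp6v0d2 of 0.956, and Slc26a4 and Slc4a1 of -0.26. Slc26a4 and Slc4a1 set types A and B, so every r with either of them was shaped by the typing.

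Between the strains, Slc4a1 and Atp6v1g3 were lower in the MRL/lpr library at both ages by more than counting error, and no other member was lower at both ages on that count, where 2.36% of the 4150 genes compared were. Intervals narrow with depth, and of the 385 genes with at least the 281 UMIs of Slc4a1, the member with the fewest, 10.9% were lower on that count. For Slc4a1 in intercalated nuclei, MRL/lpr over C57BL/6 gave a log2 ratio of -0.79 (counting interval -1.33 to -0.25) at 6 weeks and -0.98 (-1.50 to -0.48) at 10 weeks. For Atp6v1g3 it was -0.56 (-0.80 to -0.32) and -0.65 (-0.89 to -0.42). Neither reached 2-fold at both ages, nor did any of the 10 members, where 1.78% of those genes exceeded 2-fold upward in MRL/lpr at each age and 1.45% did so downward. At 1.5-fold, Slc4a1 was among the 4.48% of genes lower at both ages. Each ratio sets 1 library against 1.

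Fewer type A nuclei and less Slc4a1 RNA per nucleus cannot be told apart here, because the gene sets the type. Within type A nuclei alone the Slc4a1 ratios were -0.26 (-0.80 to 0.28) and -0.18 (-0.71 to 0.32). Such nuclei were chosen for having a Slc4a1 UMI, and 146 of 204 had exactly 1. The rule thus limits these ratios, and they cannot decide between the cases. Of the 86 genes higher in type A, 81 had enough UMIs in the whole intercalated class for a ratio. Of these, 10, Rhbg included, were lower in MRL/lpr at both ages beyond counting error, and 5 were higher. On that count 2.36% of the 4150 genes compared were lower, as were 10.9% of the 385 with at least 281 UMIs. The share of all genes higher at both ages was not counted. The medians of the 81 genes were -0.0092 and -0.10. Of those named above, Aqp6 was at -0.23 and 0.09, Kit at -0.21 and -0.05, and Adgrf5 at 0.36 and -0.04 at 6 and 10 weeks, and each interval held 0. Lrrc31 was at 1.53 (1.04 to 2.06) and 1.05 (0.62 to 1.49), and Defb1 at 0.84 (0.53 to 1.15) and -0.52 (-0.80 to -0.23). These ratios, taken over the whole intercalated class, went in both directions, and their cause was not tested. Tfcp2l1 (-0.0092 and -0.13), P2ry14 (0.12 and 1.11) and Slc9a2 (-0.81 and -0.48) had intervals that held 0 at both ages. Dmrt2, a transcription factor gene with 94 UMIs in all, was at -0.23 (-1.14 to 0.68) and -1.28 (-2.32 to -0.33). Proximal tubule RNA in the class was higher in the MRL/lpr libraries (1955 and 2155 CPM) than in the C57BL/6 libraries (1615 and 1432 CPM). Without nuclei that had 3 or more proximal tubule markers, the Slc4a1 ratios were -0.82 and -0.91 and those of Atp6v1g3 were -0.53 and -0.66. In type B nuclei alone Atp6v1g3 was at -0.41 (-0.72 to -0.11) and -0.68 (-0.97 to -0.39), so that it was also lower within type B in both comparisons.

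**Figure D5:**
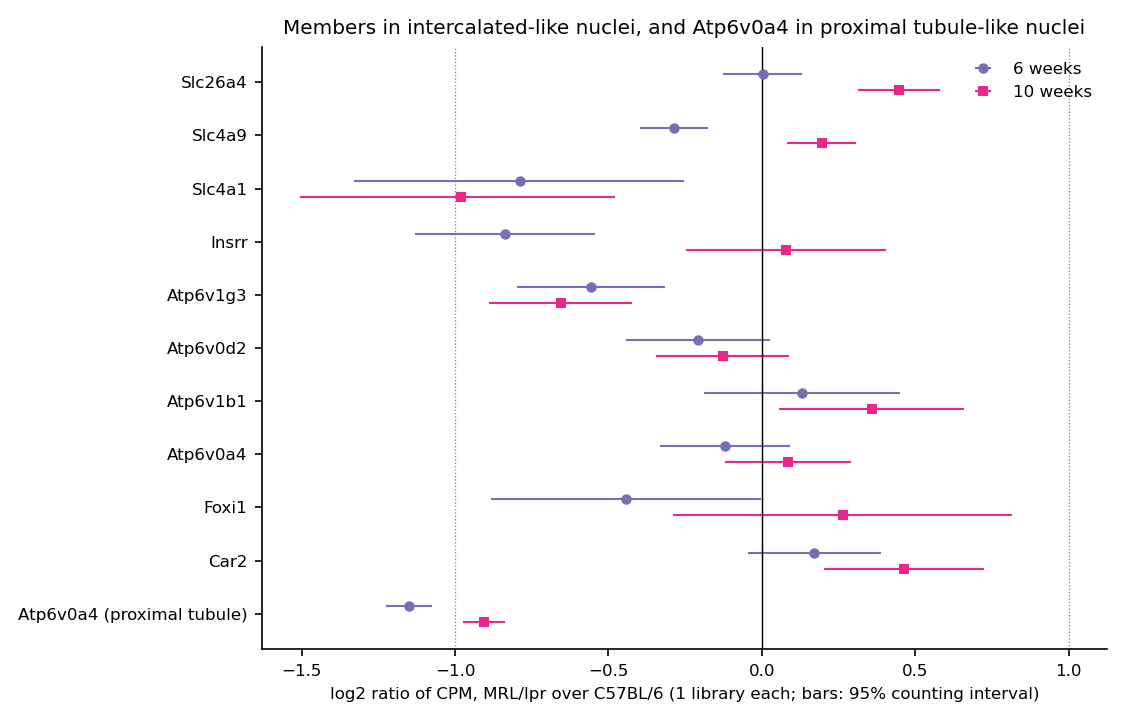
MRL/lpr over C57BL/6, as a log2 ratio at 6 and at 10 weeks, for each member in intercalated-like nuclei and for Atp6v0a4 in proximal tubule-like nuclei, with 95% counting intervals; dotted lines mark 2-fold. In intercalated-like nuclei the intervals of Slc4a1 and Atp6v1g3 lie below 0 at both ages. Those of Insrr, Slc4a9 and Foxi1 do so at 6 weeks alone. Atp6v0a4 in the proximal tubule lies lowest at 6 weeks.

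The remaining members were not on the same side of 0 beyond counting error at both ages. Insrr was lower in MRL/lpr at 6 weeks (-0.84, -1.13 to -0.54) and not at 10 weeks (0.08, -0.25 to 0.40). Its value of 1319 CPM in the C57BL/6 library at 6 weeks stood apart from the 739 to 857 CPM of the others, and in type B nuclei alone the ratios were -0.74 and 0.03. Slc4a9 was lower in MRL/lpr at 6 weeks (-0.29, -0.40 to -0.18) and higher at 10 weeks (0.19, 0.08 to 0.31). Slc26a4 had a ratio near 0 at 6 weeks (0.00, -0.13 to 0.13) and was higher in MRL/lpr at 10 weeks (0.45, 0.31 to 0.58). Car2 was at 0.17 (-0.05 to 0.39) and 0.46 (0.20 to 0.72), Atp6v1b1 at 0.13 (-0.19 to 0.45) and 0.36 (0.06 to 0.66), and Foxi1 at -0.44 (-0.88 to -0.0043) and 0.26 (-0.29 to 0.82). Atp6v0d2 (-0.21 and -0.13) and Atp6v0a4 (-0.12 and 0.09) had intervals that held 0 at both ages. In all, 0 members were higher and 5 lower beyond counting error at 6 weeks, and 4 were higher and 2 lower at 10 weeks. Of all genes compared, 6.29% were higher and 6.67% lower on that count at 6 weeks, and 7.18% and 7.57% at 10 weeks; among the 385 genes with at least 281 UMIs these shares were 15.6% and 15.8%, and 14.5% and 20.3%. The member medians were -0.25 and 0.14, where the medians of all genes compared were -0.01 and -0.02.

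Foxi1, Insrr and Car2 were among the members lower in the older C57BL/6 library. Of the 10 members, 5 were lower and 2 higher beyond counting error at 10 weeks in C57BL/6. In MRL/lpr 1 was lower and 5 were higher. The share of all genes past counting error with age was not counted, so these counts do not show that members changed more often than other genes. The log2 ratio of 10 over 6 weeks in C57BL/6 was -0.91 (-1.42 to -0.42) for Foxi1, -0.70 (-0.995 to -0.41) for Insrr and -0.59 (-0.85 to -0.34) for Car2. In MRL/lpr Foxi1 was at -0.20 (-0.71 to 0.29) and Insrr at 0.21 (-0.11 to 0.54), with intervals that held 0, and Car2 at -0.30 (-0.53 to -0.08). Atp6v0d2 was higher at 10 weeks in both strains, by 0.34 in MRL/lpr and 0.26 in C57BL/6. Whether these age ratios differ between the strains was not tested.

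Outside the members, the ammonia channels were lower in the MRL/lpr libraries, and they were picked out after their values were seen. In intercalated nuclei Rhbg had log2 ratios of -0.83 (-1.19 to -0.48) and -0.69 (-1.06 to -0.32), and Rhcg, the apical channel, -0.70 (-1.02 to -0.38) and -0.43 (-0.76 to -0.11). Of 13 genes of the transport list with enough UMIs, 8 had ratios below 0 at both ages, as did 30.4% of all genes compared, 1 was above 0 at both, and 0 reached 2-fold at both, with medians of -0.34 and -0.37. Fxyd2, which adjusts the sodium pump, was at -0.34 and -0.45, and Atp1b1, a subunit of that pump, at -0.19 and 0.12. Of 20 regulators and receptors compared, Sctr, the secretin receptor, was the only one that was lower in MRL/lpr by 2-fold or more at each age, with 8, 37, 12 and 34 UMIs in the 4 libraries. Its log2 ratios were -2.51 (-3.82 to -1.38) and -1.32 (-2.40 to -0.33), read against the 1.45% of genes given above.

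Outside intercalated nuclei, Atp6v0a4 was lower in the MRL/lpr libraries in the proximal tubule. In proximal tubule-like nuclei it gave 2348, 4070, 2808 and 4296 UMIs, or 537, 1191, 700 and 1311 CPM, with both MRL/lpr libraries below both C57BL/6 libraries. The log2 ratios were -1.15 (-1.22 to -1.08) at 6 weeks and -0.90 (-0.97 to -0.84) at 10 weeks, so it missed 2-fold at 10 weeks. In that class 2.62% of 11738 genes exceeded 2-fold upward in MRL/lpr at each age and 1.73% did so downward. Of the 7 members with enough UMIs there, 4 had ratios below 0 at both ages and 0 above, with medians of -0.69 and -0.08. Slc4a9, used above as the background of detection, stood at a median of 18.2 CPM there and Slc26a4 at 15.1 CPM. The share of all genes of that class below 0 at both ages was not counted, so no result about the members is read from this count. In the other segments Atp6v0a4 had intervals that held 0 at 6 weeks: 0.30 in the thick ascending limb (-0.01 to 0.61), 0.09 in the distal convoluted tubule (-0.17 to 0.35), -0.03 in the connecting tubule (-0.37 to 0.31) and 0.03 in principal-like nuclei (-0.27 to 0.35). At 10 weeks it was lower in MRL/lpr in the first 3 of these, at -0.42 (-0.71 to -0.14), -0.35 (-0.64 to -0.08) and -0.47 (-0.82 to -0.14), and at -0.13 (-0.42 to 0.18) in principal-like nuclei. Differences between segments were not tested. Proximal tubule clusters were mostly of 1 strain (the one with most nuclei held 2379, 42, 2472 and 5 of the 4 libraries), and their part in this ratio was not tested.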

How the data were processed

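Nuclei of renal cortex were profiled with a droplet 3' kit, per the labels' protocols. The deposited values are raw UMI counts that the authors made with Cell Ranger (5.0.0 per the file headers, 3.1.0 per the submitters' processing notes); for the genome build and the treatment of introns nothing is given in the sources used here. Nuclei with at least 200 genes and at most 10% mitochondrial UMIs were kept, and 427 to 863 barcodes a library were left out as doublets by their Scrublet scores. In MRL/lpr at 6 weeks the automatic threshold marked under 0.5%, so the highest scores at the expected rate were left out instead. The other libraries used the automatic threshold. Clustering used scanpy 1.11.5 (3000 variable genes without the members, 40 components, 15 neighbours, Leiden resolution 1), and a class was called X-like where at least 3 of its markers were among the cluster's 10 leading genes or at least 50% of its markers were enriched. Clusters that met neither rule stayed unnamed. Free RNA was not corrected, and intervals cover counting error only.

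Counts were summed per class and library. Strains and ages, with 1 library each, were compared as ratios with exact binomial 95% intervals for genes with at least 50 UMIs in the class, without a test. Types A and B were compared with edgeR 4.0.16 (quasi-likelihood, R 4.3.3, library as a block, at least 20 UMIs, Benjamini-Hochberg adjustment over all genes tested). The fit pooled the spread over genes, so the p-values do not measure the spread of each gene alone between these 4 libraries. TMM factors came from the 404 genes with at least 200 UMIs, because TMM over all tested genes was biased on simulated sums; this was chosen after seeing the data. The members and gene lists were chosen with earlier results of these data known. Named genes are all members, the 3 genes of each list with the most UMIs or past the threshold, and the 5 non-members with the smallest p in each direction and the same direction in 4 of 4 libraries. One gene that this rule names is not reported here.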

Additional observations from a re-analysis of the deposited data

Results flagged for a closer look

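The exchanger genes Slc26a4 and Slc4a9 each moved in opposite directions with age in the 2 strains, by more than counting error in each. In intercalated-like nuclei the log2 ratio of 10 over 6 weeks for Slc26a4 came to 0.18 (MRL/lpr) and -0.27 (C57BL/6). For Slc4a9 the same ratio came to 0.265 (MRL/lpr) and -0.22 (C57BL/6). For Slc4a9, MRL/lpr over C57BL/6 turned on the log2 scale from -0.29 at 6 weeks to 0.19 at 10 weeks. These differences between strains and between ages were not tested, since each value sets 1 library against 1. Both genes have many UMIs, so their intervals are narrow and small ratios pass. The share of all genes that turn in this way was not counted, so the turn is not read as particular to these genes.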

How the results depend on the processing

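Of the values that answer a comparison, 63 alternatives left the value within the spread or within 1.5 times the reported count and 21 moved it. The type B share of typed nuclei rose to 95.8%, 92.9%, 95.3% and 85.9% when at least 2 UMIs of the typing gene were needed, and to 88.4%, 88.2% and 91.5% in the first 3 libraries when nuclei under 400 UMIs were left out and the others thinned. The intercalated share of C57BL/6 at 6 weeks was 4.35% when every library was held to the highest of the 4 libraries' minimum depths. Genes past 2-fold at each age, upward and downward in MRL/lpr, numbered 5 and 4 in type A nuclei alone and 48 and 38 in type B nuclei alone, and at 1.5-fold 190 and 186. Genes higher in type B and in type A numbered 143 and 58 with TMM factors from all tested genes, 119 and 66 with DESeq2 size factors, 49 and 37 with the DESeq2 Wald test (2382 genes with an adjusted p), 33 and 33 with the stricter typing, and 74 and 63 with no replicate block, where the block is the library. Leaving out each library in turn gave 62 to 78 and 52 to 74, lowest without C57BL/6 at 10 weeks, and moved Foxi1 between -0.3804 and 0.0716 and Atp6v1g3 between -0.1236 and 0.2486. The all-gene median was 0.17 with DESeq2 size factors and 0.25 with TMM from all tested genes. Slc4a9 and Insrr passed under all 15 alternatives; Slc4a9 ranged from 1.17 to 1.51, and the fitted ratio of Insrr, which rests on 2 type A UMIs, from 4.17 to 9.52 (5.37 to 9.52 over the libraries left out in turn). Members that did not pass changed sign: with DESeq2 size factors Atp6v0a4 (0.05138) and Foxi1 (0.0004077); with TMM from all tested genes Atp6v1b1 (0.002027), Atp6v0a4 (0.1293) and Foxi1 (0.08063); with the Wald test Atp6v0a4 (0.00583); without MRL/lpr at 6 weeks Atp6v1g3 (-0.0521); without C57BL/6 at 10 weeks Atp6v1g3 and Foxi1; and with the stricter typing Atp6v0d2 (-0.08206) and Foxi1 (0.2572). The cause of these changes was not tested. TMM from all tested genes and library sizes alone (93 and 86) were chosen after seeing the data. Depth limits type A most, with 204 nuclei and 91641 UMIs in all.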
